A study of Mus musculus with 4 samples.

Results

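Sim1, Otp, Fezf1, Fezf2, Arnt2, Pou3f2, Nkx2-1, Nkx2-2 and Foxb1 encode transcription factors of the developing hypothalamus, and their signals were followed in neuroretina, the part of the embryonic eye that forms neurons. The 9 genes were listed by name with earlier results of these arrays in view, and each was represented by the transcript cluster (the set of array probes that stands for a gene) assigned to its symbol alone. A value was obtained for 8 of the 9, out of 20252 genes measured. The only transcript cluster that carries the Nkx2-1 symbol carries a second symbol as well, so Nkx2-1 has no value here. All differences between the genotypes of these 8 genes are a description, because that contrast was in view when they were chosen.

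The tissue was dissected at embryonic day 13.5 from CD-1 mice. One set of embryos was labelled Chx10-Cre;Lhx2 lox/lox, meaning that loxP-flanked alleles of Lhx2, a LIM-homeodomain gene of eye development, were combined with a transgene that expresses Cre recombinase in retinal progenitors. The other set was labelled Lhx2 lox/lox and carried the same alleles with no Cre transgene named, so an effect of the transgene and an effect of losing Lhx2 cannot be told apart. Each genotype had 2 arrays, numbered as replicates 1 and 2, and the labels do not say whether these came from separate embryos, litters or pools. Recombination is limited to cells in which the transgene was active, and the dissected tissue is a mixture of cells.

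The hypothalamus is built from the same anterior neural plate that gives rise to the eye, and its neurons are specified by combinations of transcription factors. SIM1 belongs to the bHLH-PAS family and acts as a dimer with ARNT2, and mice lacking either protein fail to form the neuroendocrine neurons of the paraventricular and supraoptic nuclei. OTP, a homeodomain protein, is needed for the same neurons, and POU3F2 (also called BRN2) acts downstream of them to switch on hormone genes. FEZF1 and FEZF2 are zinc-finger repressors of the forebrain, NKX2-1 and NKX2-2 are homeodomain factors of ventral territories, and FOXB1 marks the mammillary region.

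Promoter sequence was matched in RefSeq for 8 of the 9 genes (build GRCm38.p6), and the 250 bases upstream of the annotated start are shown for Sim1, Otp and Fezf1, whose signals moved together, and for Pou3f2, whose signal moved in part with them. Capitals mark CAATTA, a variant of the homeodomain core, and ACGTG, the core bound by bHLH-PAS dimers, each searched on both strands (the capitals of Pou3f2 are the second motif read on the other strand).
Sim1 (chr10:50895401-50895650, plus strand): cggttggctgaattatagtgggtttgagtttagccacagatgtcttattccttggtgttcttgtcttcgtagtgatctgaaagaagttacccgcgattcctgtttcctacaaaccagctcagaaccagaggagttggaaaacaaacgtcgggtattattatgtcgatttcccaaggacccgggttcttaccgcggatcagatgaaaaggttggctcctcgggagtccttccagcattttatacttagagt
Otp (chr13:94875386-94875635, plus strand): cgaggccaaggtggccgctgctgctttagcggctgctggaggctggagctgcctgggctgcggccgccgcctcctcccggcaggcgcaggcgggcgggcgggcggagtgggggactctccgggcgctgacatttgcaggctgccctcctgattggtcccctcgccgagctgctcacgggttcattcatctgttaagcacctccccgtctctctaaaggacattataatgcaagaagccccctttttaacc
Fezf1 (chr6:23248265-23248514, minus strand): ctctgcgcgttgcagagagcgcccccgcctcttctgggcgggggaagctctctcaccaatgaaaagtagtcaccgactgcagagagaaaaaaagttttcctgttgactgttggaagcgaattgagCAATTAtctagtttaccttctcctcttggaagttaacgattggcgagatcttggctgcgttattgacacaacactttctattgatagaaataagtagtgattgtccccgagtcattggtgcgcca
Pou3f2 (chr4:22488367-22488616, minus strand): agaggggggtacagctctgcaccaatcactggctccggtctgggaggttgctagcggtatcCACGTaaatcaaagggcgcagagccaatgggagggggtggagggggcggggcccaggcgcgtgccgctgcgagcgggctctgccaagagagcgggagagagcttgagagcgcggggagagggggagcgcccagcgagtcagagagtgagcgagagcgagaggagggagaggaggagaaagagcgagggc

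Foxb1 was the gene without a matched promoter, and the windows include that of Nkx2-1, which has no array value. The palindromic homeodomain core TAATTA was found in 0 of the 8 promoter windows, and it was present in 4.84% of the 32851 windows of the same length in the RefSeq table. CAATTA was found in the Fezf1 window, 120 to 125 bases upstream of the start, and in 7.17% of all windows. ACGTG was found in the windows of Pou3f2 and Nkx2-2 and in 16.6% of all windows. CACTTG, a core bound by NKX2 proteins, was found in the Nkx2-2 window and in 11.6% of all windows. The Nkx2-2 window held ACGTG on both strands in overlapping positions. The GC content was 45.6% for Sim1, 47.6% for Fezf1, 65.2% for Otp and 66.8% for Pou3f2, against a median of 52.4% over all windows. The Sim1, Otp and Fezf1 windows thus shared neither a searched motif nor a base composition, and these letters say nothing of binding.

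Signals are given as log2 values over the median of all 112205 transcript clusters on the same array, so 0 is the level of the median cluster. This scale was used because the deposited values did not share a common level. The array medians were 2.85 and 3.46 on Chx10-Cre;Lhx2 lox/lox replicates 1 and 2, and 2.97 and 3.53 on Lhx2 lox/lox replicates 1 and 2. The 75th percentile of all clusters lay between 0.99 and 1.13 above the median on the 4 arrays. A signal under that mark is called near background here, since most clusters of the array name no gene and lie there.

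Lhx2 itself gave 3.53 and 3.04 on the Chx10-Cre;Lhx2 lox/lox arrays and 3.39 and 2.96 on the Lhx2 lox/lox arrays, and the groups overlapped. Its log2 difference was 0.11 (SE 0.30, limma adjusted p = 0.968), and its sign turned with the scaling (-0.06 with arrays centred on the gene median). The exons that its probes cover were not used here, so this signal does not check the genotype labels.

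Sim1, Otp and Fezf1 were near background on both Lhx2 lox/lox arrays and far above it on both Chx10-Cre;Lhx2 lox/lox arrays, while Arnt2 and Fezf2 were well above background in both genotypes and differed by less than 1 log2 unit. Pou3f2 was present in both genotypes and higher in the Chx10-Cre;Lhx2 lox/lox arrays. Nkx2-2 and Foxb1 stayed near background on all 4 arrays. Of the 8 genes, 5 were higher and 2 were lower with no overlap between the groups. The same held for 23.3% (higher) and 15.8% (lower) of all genes, and nothing is read from the count because the genes were chosen on this contrast.

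Sim1 (transcript cluster 6767762) had signals of 4.78 and 5.64 on the Chx10-Cre;Lhx2 lox/lox arrays, against 0.19 and -0.12 on the Lhx2 lox/lox arrays. Both signals of the first genotype stood far above both of the second, and the Lhx2 lox/lox signals could not be told from background. The mean was 5.21 ± 0.61 in Chx10-Cre;Lhx2 lox/lox and 0.03 ± 0.22 in Lhx2 lox/lox (SD, n = 2 each). The mean difference of 5.18, or 36.3-fold, was the largest positive difference among the 20252 genes. It is a ratio to a background signal. Set against the 75th-percentile mark of the Lhx2 lox/lox arrays in place of the measured signal, the Sim1 difference was 4.17, or 18.1-fold.

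Arnt2 (6969021), the dimer partner of SIM1, gave 3.74 and 3.47 on the Chx10-Cre;Lhx2 lox/lox arrays and 3.62 and 2.88 on the Lhx2 lox/lox arrays. All 4 signals were above the background mark and the groups overlapped. The mean was 3.60 ± 0.19 in Chx10-Cre;Lhx2 lox/lox and 3.25 ± 0.52 in Lhx2 lox/lox (SD, n = 2 each), a difference of 0.35 that is smaller than the spread between the Lhx2 lox/lox arrays. Transcript of the partner was thus measured on arrays of both genotypes, and Sim1 signal above background on those of Chx10-Cre;Lhx2 lox/lox.

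Otp (6809082), which acts in parallel with Sim1 in neuroendocrine neurons, gave 3.91 and 4.43 on the Chx10-Cre;Lhx2 lox/lox arrays and 0.45 and 0.19 on the Lhx2 lox/lox arrays. The groups were widely separated, and both Lhx2 lox/lox signals were near background. The mean was 4.17 ± 0.37 in Chx10-Cre;Lhx2 lox/lox and 0.32 ± 0.19 in Lhx2 lox/lox (SD, n = 2 each), a difference of 3.85 (14.4-fold), and 3.13 (8.75-fold) against the background mark.

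Pou3f2, the downstream POU-domain factor, has 2 transcript clusters. The brighter one (6920149) gave 4.12 and 4.79 on the Chx10-Cre;Lhx2 lox/lox arrays and 3.54 and 2.67 on the Lhx2 lox/lox arrays. The groups did not overlap, but the gap between the nearest arrays was somewhat smaller than the range within each genotype. The difference was 0.57 between the replicate 1 arrays and 2.12 between the replicate 2 arrays, with a mean of 1.34 (2.54-fold). The dimmer cluster (6920150) gave 3.22 and 4.24 on the Chx10-Cre;Lhx2 lox/lox arrays and 2.49 and 1.35 on the Lhx2 lox/lox arrays, a mean difference of 1.81. Both clusters therefore ordered the arrays in the same way, with Lhx2 lox/lox replicate 2 lowest and Chx10-Cre;Lhx2 lox/lox replicate 2 highest.

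The FEZF pair differed between its members. Fezf1 (6952136) gave 3.84 and 4.93 on the Chx10-Cre;Lhx2 lox/lox arrays, against 0.14 and 0.20 on the Lhx2 lox/lox arrays. Its groups were widely separated and its Lhx2 lox/lox signals were near background. The mean was 4.38 ± 0.77 in Chx10-Cre;Lhx2 lox/lox and 0.17 ± 0.04 in Lhx2 lox/lox (SD, n = 2 each), a difference of 4.21 (18.5-fold), and 3.34 (10.1-fold) against the background mark. Fezf2 (6822729) gave 5.41 and 5.97 on the Chx10-Cre;Lhx2 lox/lox arrays and 5.33 and 5.28 on the Lhx2 lox/lox arrays. It was bright on every array, and its difference of 0.38 (1.31-fold) was slightly smaller than the SD of 0.40 between the Chx10-Cre;Lhx2 lox/lox arrays. In these retinas Fezf2 transcript was thus measured with or without Cre, and Fezf1 transcript above background with Cre.

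The ventral and mammillary factors with a value, Nkx2-2 and Foxb1, gave no signal above the background mark on any array. Nkx2-1 had no value. Nkx2-2 (6891818), a homeodomain factor of cells next to the floor plate, gave -0.08 and -0.04 on the Chx10-Cre;Lhx2 lox/lox arrays and 0.05 and 0.37 on the Lhx2 lox/lox arrays. Foxb1 (6996603) gave 0.61 and 0.51 on the Chx10-Cre;Lhx2 lox/lox arrays and 0.98 and 0.70 on the Lhx2 lox/lox arrays. Both were slightly lower in Chx10-Cre;Lhx2 lox/lox, by 0.27 and 0.28, but signals at this level have no order that can be told from background. In tissue RNA, fewer cells of a type and less RNA per cell cannot be told apart for any of these genes.

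**Figure D1:**
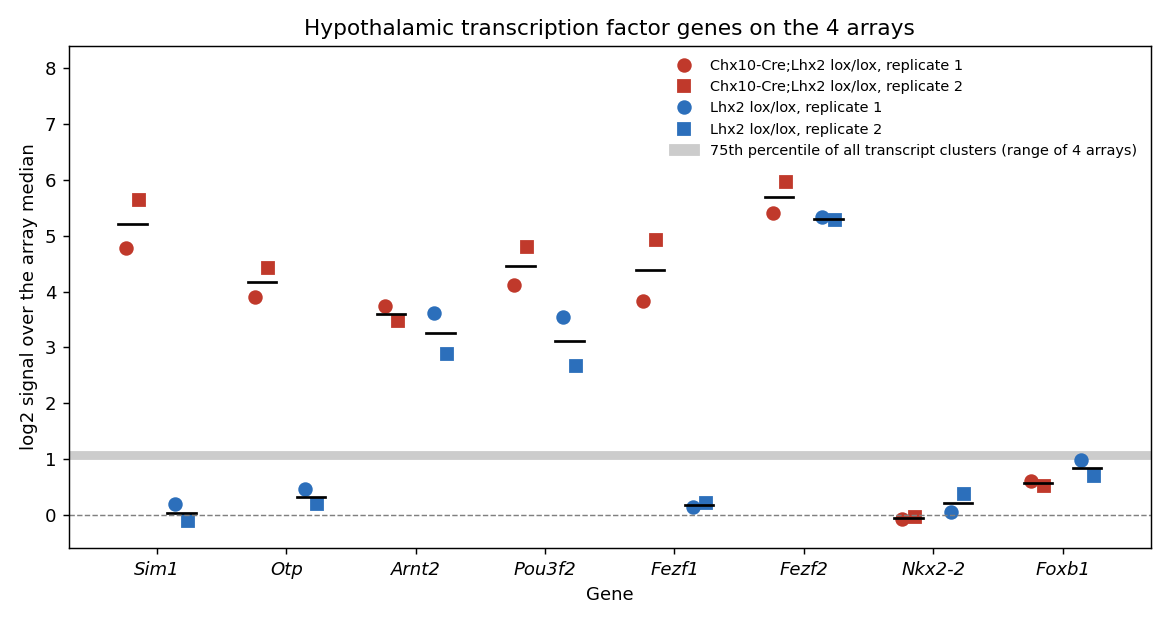
Log2 signal over the array median (vertical axis) of the 8 genes with a value, with Chx10-Cre;Lhx2 lox/lox in red left of Lhx2 lox/lox in blue, circles for replicate 1, squares for replicate 2 and black bars for group means. Sim1, Otp and Fezf1 sit between 3.84 and 5.64 in Chx10-Cre;Lhx2 lox/lox and under the grey 75th-percentile band in Lhx2 lox/lox, Arnt2, Pou3f2 and Fezf2 lie above the band on all arrays, and Nkx2-2 and Foxb1 lie under it.

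The differences were then taken within arrays of the same replicate number. For Sim1 the difference was 4.60 (24.2-fold) between the replicate 1 arrays and 5.76 (54.3-fold) between the replicate 2 arrays. For Otp it was 3.46 and 4.24, and for Fezf1 3.69 and 4.72, in the same order. These 3 genes exceeded 1 log2 unit in both, as did 1.29% of all genes (262 of 20252). The other 5 genes did not. All 6 genes with positive differences, including Arnt2 (0.12 and 0.58) and Fezf2 (0.08 and 0.69), had the larger one in replicate 2. Of the 262 genes over 1 log2 unit in both, 156 (59.5%) had the larger one in replicate 2, as had 44.5% of all genes.

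The larger differences in replicate 2 came mainly from higher signals on Chx10-Cre;Lhx2 lox/lox replicate 2 in Sim1, Otp and Fezf1, since their Lhx2 lox/lox signals were near background on both arrays. For Arnt2 the order within Chx10-Cre;Lhx2 lox/lox was the other way, and the lower signal of Lhx2 lox/lox replicate 2 set the difference. Without Chx10-Cre;Lhx2 lox/lox replicate 1 the mean differences were 5.61 for Sim1, 4.11 for Otp, 4.75 for Fezf1 and 1.68 for Pou3f2. Without Chx10-Cre;Lhx2 lox/lox replicate 2 they were 4.75, 3.59, 3.66 and 1.01 for the same genes. Without Lhx2 lox/lox replicate 2, Arnt2 differed by -0.01 and Pou3f2 by 0.91.

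**Figure D2:**
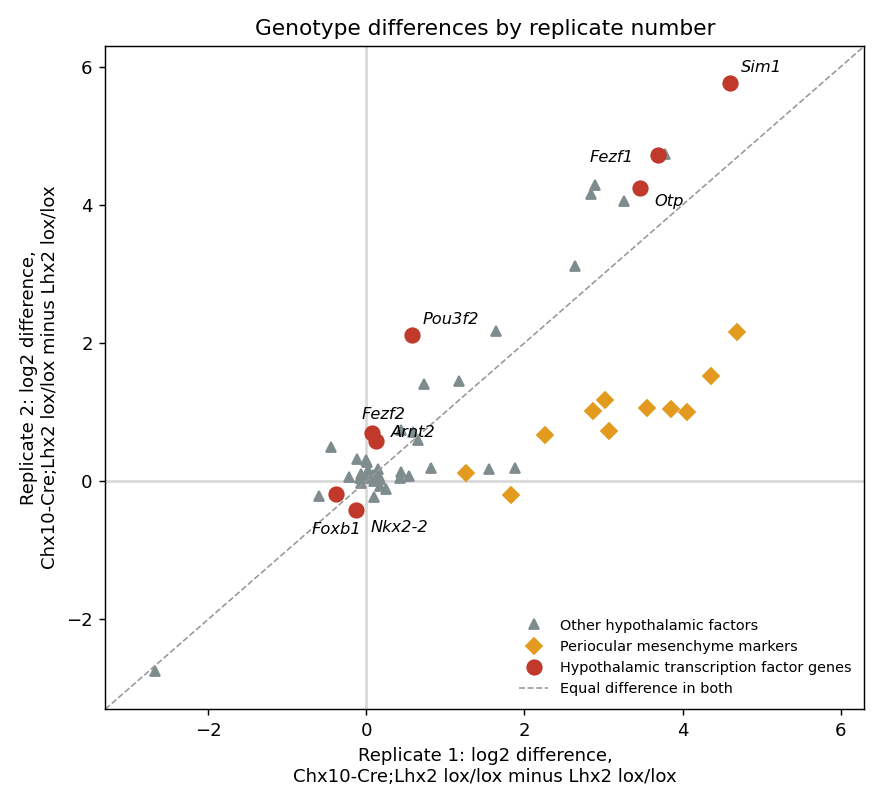
Log2 difference, Chx10-Cre;Lhx2 lox/lox minus Lhx2 lox/lox, between the replicate 1 arrays (horizontal axis) and between the replicate 2 arrays (vertical axis), for the 8 genes (red circles), 38 other hypothalamic factors (grey triangles) and 11 periocular mesenchyme markers (orange diamonds). Sim1, Otp, Fezf1 and Pou3f2 lie above the dashed line of equal differences and the mesenchyme markers below it.

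Across the 4 arrays, the genes whose pattern lay nearest to that of Sim1 were Lhx5, Fezf1, Rspo3, A230054N11Rik and Otp, with Euclidean distances of 0.93, 1.02, 1.05, 1.23 and 1.35 log2 units between signals taken as deviations from each gene's own mean. The sixth gene lay at 1.59 and the median gene at 5.20. Lhx5, a LIM-homeodomain gene of the forebrain, gave 3.99 and 4.78 on the Chx10-Cre;Lhx2 lox/lox arrays and 0.21 and 0.05 on the Lhx2 lox/lox arrays. Rspo3, which encodes a secreted enhancer of Wnt signalling, gave 3.82 and 4.48 on the Chx10-Cre;Lhx2 lox/lox arrays and 0.24 and -0.24 on the Lhx2 lox/lox arrays. A pattern over 4 arrays distinguishes genes mainly by the size of their genotype difference, and 2 of the 5 nearest genes, Fezf1 and Otp, were on the list already.

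Genes related to the 9 factors were tested with limma across all 20252 genes. At an adjusted p of 0.05, limma called 0 genes (0% of those tested), so 0 genes of any list below were called. At an unadjusted p under 0.05 there were 1959 (9.67%), 1195 higher (5.9%) and 764 lower (3.77%), and the smallest adjusted p was 0.0735. On the deposited values without centring, limma called 415 genes (2.05%), 257 higher (1.27%) and 158 lower (0.78%). Because of this dependence on the array scale, genes of each list were also counted by size, as those over 1 log2 unit in the same direction in both replicate numbers. Over all genes 1.29% were higher and 0.736% lower by that rule, with a median difference of 0.03. The lists were chosen with earlier results known, and they share genes with one another.

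Other transcription factors of hypothalamic development had 38 measured genes of 41, with a median difference of 0.14. By size, 7 were higher (18.4%) and 1 was lower (2.63%), and at an unadjusted limma p under 0.05 there were 10 higher and 1 lower. The higher ones were Lhx5, Lhx1, Lhx9, Tbr1, Neurog1, Uncx and Sim2. The lower one was Nr0b1, an orphan nuclear receptor gene with signals of 0.21 and 0.41 in Chx10-Cre;Lhx2 lox/lox and 2.88 and 3.15 in Lhx2 lox/lox (difference -2.71, SE 0.21, limma adjusted p = 0.0735). Several of the higher factors also mark the thalamic eminence or prethalamus.

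Lhx1 gave 3.45 and 3.59 on the Chx10-Cre;Lhx2 lox/lox arrays and 0.20 and -0.47 on the Lhx2 lox/lox arrays (difference 3.66, SE 0.28, limma adjusted p = 0.0735). Lhx9 gave 3.44 and 4.48 on the Chx10-Cre;Lhx2 lox/lox arrays, against 0.54 and 0.19 on the Lhx2 lox/lox arrays. Tbr1, a T-box gene of early glutamatergic forebrain neurons, gave 3.02 and 4.01 in Chx10-Cre;Lhx2 lox/lox and 0.17 and -0.15 in Lhx2 lox/lox. Neurog1, a proneural bHLH gene, gave 2.86 and 2.89 on the Chx10-Cre;Lhx2 lox/lox arrays, against 0.23 and -0.22 on the Lhx2 lox/lox arrays, so its replicates were closer together than those of Sim1. All of these were near background in Lhx2 lox/lox, as Sim1 was. Another 17 of the 38 factors, among them Nr5a1, Bsx, Hmx2, Hmx3, Nkx2-4, Nkx6-1, Foxa1 and Foxa2, which serve the ventromedial, arcuate, tuberal or floor plate regions, were below the background mark on all 4 arrays.

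Factors that hypothalamus and retina share included several that were lower in Chx10-Cre;Lhx2 lox/lox. All 18 were measured, with a median difference of -0.95, of which 7 were lower (38.9%) and 2 higher (11.1%) by size, and at an unadjusted limma p under 0.05 there were 11 lower and 2 higher. Six6, a homeobox gene of eye, pituitary and hypothalamus, gave 1.70 and 1.54 in Chx10-Cre;Lhx2 lox/lox and 5.18 and 5.23 in Lhx2 lox/lox (difference -3.59, SE 0.22, limma adjusted p = 0.0735). Tbx3, which patterns both dorsal retina and tuberal hypothalamus, differed by -2.81 and Dlx2, a factor of GABAergic neurons, by -2.23. Rax, needed for both eye and ventral hypothalamus, gave 2.46 and 2.94 in Chx10-Cre;Lhx2 lox/lox and 4.74 and 4.89 in Lhx2 lox/lox, and Dlx1, Tbx2 and Isl1 were the other lower genes. Nr2f2 and Nr2f1, orphan nuclear receptor genes, were the higher ones, by 1.60 and 1.10. The 7 lower genes were all above the background mark on both Lhx2 lox/lox arrays.

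Among 27 measured genes of 28 in the neuroendocrine list, 3 were higher (11.1%) and 1 was lower (3.70%) by size, with a median difference of 0.13. At an unadjusted limma p under 0.05 there were 4 higher and 1 lower. Cartpt, which encodes a peptide precursor, gave 3.19 and 4.34 in Chx10-Cre;Lhx2 lox/lox and 1.03 and 1.12 in Lhx2 lox/lox (difference 2.69, SE 0.42, limma adjusted p = 0.156). Rgs4, a regulator of G protein signalling, differed by 2.57 and Trh, the thyrotropin-releasing hormone gene, by 1.53. Galanin (Gal) was the lower one, with 0.28 and 0.82 in Chx10-Cre;Lhx2 lox/lox and 2.51 and 3.58 in Lhx2 lox/lox.

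Of 5 hormone genes of SIM1- and OTP-dependent hypothalamic neurons, Avp and Oxt were below the background mark on all arrays, Crh was above it on 1, Trh on 3 and Sst on all 4. Avp (vasopressin) gave 0.53 and 0.22 in Chx10-Cre;Lhx2 lox/lox and 0.40 and 0.09 in Lhx2 lox/lox. Oxt (oxytocin) gave 0.42 and 0.41 in Chx10-Cre;Lhx2 lox/lox and 0.64 and 0.39 in Lhx2 lox/lox. Crh (corticotropin-releasing hormone) gave 1.26 and 0.91 in Chx10-Cre;Lhx2 lox/lox and 0.69 and 0.76 in Lhx2 lox/lox. Sst (somatostatin) gave 2.19 and 3.55 in Chx10-Cre;Lhx2 lox/lox and 3.11 and 3.29 in Lhx2 lox/lox, with overlapping groups. Trh was thus the gene of these 5 whose groups were separated by size, at 2.12 and 3.12 in Chx10-Cre;Lhx2 lox/lox and 0.84 and 1.34 in Lhx2 lox/lox, and 14 of the 27 genes were below the mark on all arrays.

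**Figure D3:**
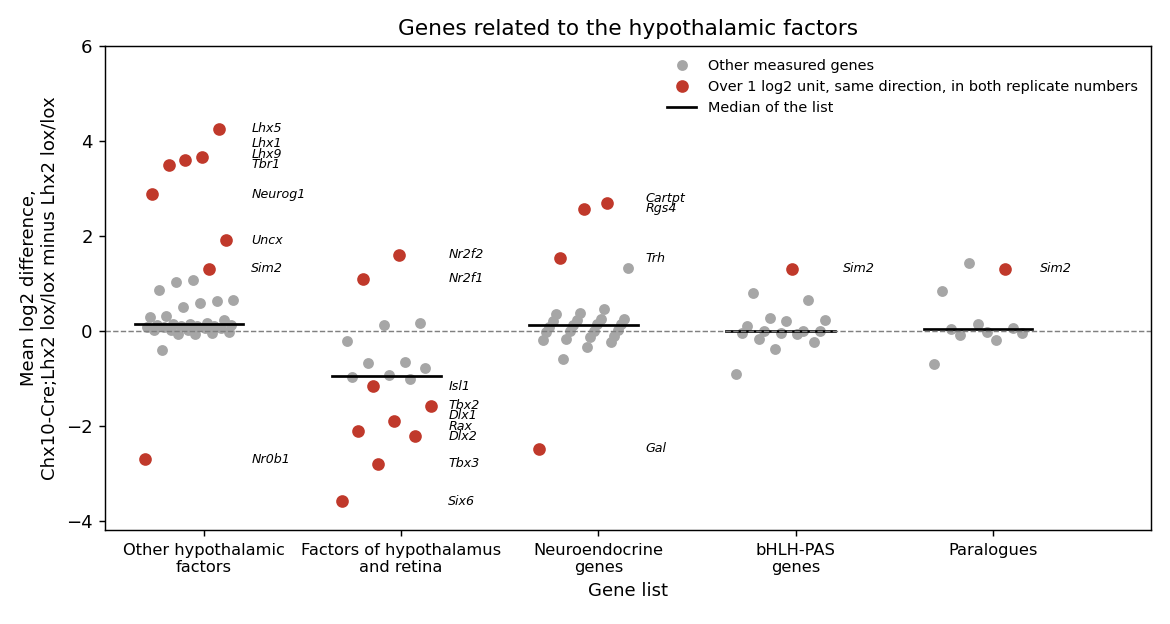
Mean log2 difference, Chx10-Cre;Lhx2 lox/lox minus Lhx2 lox/lox (vertical axis), of the measured genes in 5 lists, with red points for genes over 1 log2 unit in the same direction in both replicate numbers and black bars for list medians; horizontal position within a list has no meaning. Other hypothalamic factors include a group of genes between 2.87 and 4.26, and factors shared with the retina have a median of -0.95.

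Within the bHLH-PAS family, Sim2, the paralogue of Sim1, was higher by size and none was lower (1 and 0 of 17 measured, or 5.88% and 0%; 2 higher and 1 lower at an unadjusted limma p under 0.05). Sim2 gave 1.12 and 1.29 on the Chx10-Cre;Lhx2 lox/lox arrays and -0.05 and -0.16 on the Lhx2 lox/lox arrays (difference 1.31, SE 0.14, limma adjusted p = 0.107), so it was close to the background mark even where it was higher. Arnt, the paralogue of Arnt2, gave 3.46 and 2.83 in Chx10-Cre;Lhx2 lox/lox and 3.33 and 3.04 in Lhx2 lox/lox, with overlapping groups. Arntl, a clock gene of the family, was lower by 0.92 (SE 0.22, limma adjusted p = 0.306).

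Of 11 measured paralogues of the 9 genes, Sim2 included, 1 was higher and 0 were lower by size (9.09% and 0%), and at an unadjusted limma p under 0.05 there were 3 higher and 1 lower. The POU3 genes did not move alike. Pou3f4 gave 0.81 and 1.64 on the Chx10-Cre;Lhx2 lox/lox arrays and -0.18 and -0.22 on the Lhx2 lox/lox arrays, and Pou3f3 gave 1.34 and 1.14 in Chx10-Cre;Lhx2 lox/lox and 0.36 and 0.43 in Lhx2 lox/lox. Pou3f1 was lower, at 1.51 and 1.47 in Chx10-Cre;Lhx2 lox/lox and 2.46 and 1.93 in Lhx2 lox/lox. The NKX2 paralogues Nkx2-3, Nkx2-4, Nkx2-5, Nkx2-6 and Nkx2-9 had differences between -0.19 and 0.15, and all were below the background mark on every array.

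Markers of the retina and of tissues next to it were set beside these results. All 10 measured retina markers were lower in both replicate numbers, where 26.6% of all genes were lower and 37.9% higher in both, and all were above the background mark on at least 1 array. Their summed signal was 7.65 and 7.23 on the log2 scale in Chx10-Cre;Lhx2 lox/lox and 9.18 and 9.03 in Lhx2 lox/lox. Crx was below the background mark on both Chx10-Cre;Lhx2 lox/lox arrays (0.33 and 0.59), against 2.94 and 2.72 in Lhx2 lox/lox. The other retina markers were above the mark on every array, at a lower mean level in Chx10-Cre;Lhx2 lox/lox. Pax6, Six3, Six6, Rax and Hes5 also stand among the factors shared with the hypothalamus above, so their signals do not mark retina alone.

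Telencephalon and thalamic eminence markers were measured in 9 genes, of which Lhx5, Lhx9, Tbr1 and Emx2 stand among the other hypothalamic factors above. Their summed signal was 5.73 and 6.73 in Chx10-Cre;Lhx2 lox/lox and 3.45 and 3.25 in Lhx2 lox/lox. By size 5 of the 9 were higher and 0 lower, namely Lhx5, Lhx9, Tbr1, Eomes and Wnt8b, and all 5 had the larger difference in replicate 2. Eomes gave 3.43 and 4.03 in Chx10-Cre;Lhx2 lox/lox and 1.49 and 0.99 in Lhx2 lox/lox. Wnt8b gave 0.42 and 4.28 in Chx10-Cre;Lhx2 lox/lox and -0.74 and -0.45 in Lhx2 lox/lox. It was above the background mark on Chx10-Cre;Lhx2 lox/lox replicate 2 only. In replicate 1 it thus passed by size on signals that were both near background. Emx2 had the larger difference in replicate 1, with differences of 1.88 in replicate 1 and 0.19 in replicate 2, and was above the background mark on 1 array. The cortical markers Emx1, Neurod6 and Neurod2 were below the mark on all arrays. The part of neighbouring forebrain tissue in the Sim1, Otp and Fezf1 signals was not tested.

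Of 11 periocular mesenchyme markers 10 were higher in both replicate numbers and 7 by size, and all 11 had the larger difference in replicate 1. Their summed signal was 8.46 and 5.66 in Chx10-Cre;Lhx2 lox/lox and 4.64 and 4.50 in Lhx2 lox/lox. Muscle markers summed to 5.78 and 3.25 in Chx10-Cre;Lhx2 lox/lox and 3.10 and 3.02 in Lhx2 lox/lox, with 3 of 6 higher in both replicate numbers and 0 by size. Pigment epithelium markers summed to 7.29 and 5.79 in Chx10-Cre;Lhx2 lox/lox and 4.40 and 5.27 in Lhx2 lox/lox. Of these 11, 9 were higher in both replicate numbers and 1 by size, namely Rlbp1, which differed by 1.83 in replicate 1 and 1.36 in replicate 2. The melanin genes Dct, Tyr and Tyrp1 differed by 4.20, 3.52 and 2.70 in replicate 1 and by 0.63, 0.61 and 0.44 in replicate 2, while Rpe65, Ttr and Best1 were below the background mark on all arrays. Between the replicate 2 arrays the mesenchyme, muscle and pigment sums differed by 1.16, 0.24 and 0.53, less than between the replicate 1 arrays. The telencephalon and thalamic eminence sum differed by 2.29 in replicate 1 and 3.48 in replicate 2. Sim1, Otp and Fezf1 differed by 5.76, 4.24 and 4.72 in replicate 2, also more than in replicate 1. Whether these patterns are related was not tested.

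Of 8 endothelial markers 7 were higher in both replicate numbers and 1 by size, with median differences of 1.53 in replicate 1 and 0.58 in replicate 2. Their sums overlapped (6.49 and 5.61 in Chx10-Cre;Lhx2 lox/lox, 6.28 and 5.92 in Lhx2 lox/lox), with the brightest marker, Kdr, lower by 0.58 and 0.81 in replicates 1 and 2. All 8 macrophage markers were higher in both replicate numbers and 1 by size, and they summed to 4.57 and 4.89 in Chx10-Cre;Lhx2 lox/lox and 3.89 and 3.99 in Lhx2 lox/lox. Fcgr3 of that list and Tnnt3 of the muscle list were below the background mark on all arrays. Of 7 optic stalk markers 0 passed by size in either direction. Their sum of 5.13 and 4.62 in Chx10-Cre;Lhx2 lox/lox and 5.59 and 5.67 in Lhx2 lox/lox followed Cdon and Vax2, and Pax2, Ntn1 and Fgf8 were below the mark on all arrays. Lens sums overlapped (4.37 and 3.44 in Chx10-Cre;Lhx2 lox/lox, 4.11 and 3.81 in Lhx2 lox/lox), with 0 of 8 markers passing by size. Cryaa differed by 0.28 in replicate 1 and -1.27 in replicate 2 and was above the mark on 3 arrays, and Crygs, Foxe3 and Lim2 were below the mark on all arrays. The part of these tissues in the Sim1, Otp and Fezf1 signals was not tested.

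**Figure D4:**
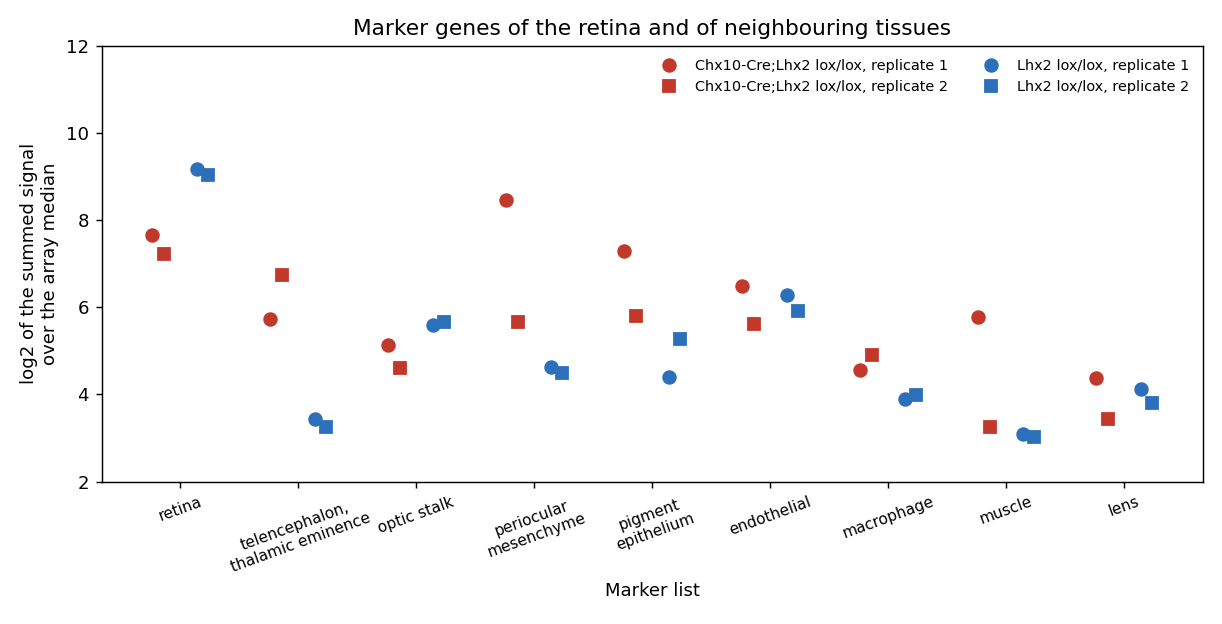
Log2 of the summed signal over the array median (vertical axis) for 9 marker lists, with Chx10-Cre;Lhx2 lox/lox in red left of Lhx2 lox/lox in blue, circles for replicate 1 and squares for replicate 2. The retina sum is lower on both Chx10-Cre;Lhx2 lox/lox arrays, the forebrain sum is higher on both, and the mesenchyme and muscle sums are highest on Chx10-Cre;Lhx2 lox/lox replicate 1.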

How the data were processed

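RNA from 4 neuroretina samples was labelled with the Affymetrix whole-transcript sense assay, per the labels' protocols. The authors deposited log2 signals per transcript cluster; RMA, Partek and mm9 appear, with no version, in the submitters' processing notes. Titles gave the groups and replicate numbers. The labels do not say that replicates are separate animals, so p-values reflect a spread that may be technical. Signals were used as deposited, minus each array's median over 112205 transcript clusters. A platform annotation gave 25513 clusters 1 symbol and 2290 several, which named no gene. Of the 25513, 24917 matched the GRCm38.p6 RefSeq table and 0 symbols changed. The cluster of highest mean stood for each of 20252 genes.

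The genotype term was tested by limma 3.58.1 under R 4.3.3 (an eBayes fit with an intensity trend, two-sided, Benjamini-Hochberg adjustment over all genes), a script tried on simulated data. The number of arrays limits precision. The 9 genes and all lists were chosen with earlier results of these data known. Genes named from the lists were the 2 of smallest p in each where none was called, those over 2 log2 units in both replicate numbers, Lhx2, and the 5 nearest to Sim1 in pattern. Other genes named, and the rule of 1 log2 unit in both replicate numbers, were chosen after values were seen. Alternatives covered array scaling, dim genes, the variance prior, clusters per gene, the replicate number as a term and each array left out.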

Additional observations from a re-analysis of the deposited data

How the results depend on the processing

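Across the alternatives run, the log2 difference ranged from 4.75 to 5.61 for Sim1, 3.59 to 4.11 for Otp, 3.66 to 4.75 for Fezf1, 0.91 to 1.78 for Pou3f2, 0.10 to 0.67 for Fezf2, -0.01 to 0.72 for Arnt2, -0.45 to -0.11 for Nkx2-2 and -0.46 to -0.14 for Foxb1. The median over the 8 genes was 0.86, and 0.63 to 1.25 with 1 array left out. It was 2.60 without genes below the median level, a filter that removes Nkx2-2 and Foxb1. Lhx2 turned to -0.063 with arrays centred on the gene median, -0.13 without Chx10-Cre;Lhx2 lox/lox replicate 1 and -0.10 without Lhx2 lox/lox replicate 2, and its highest value with 1 array left out was 0.36.

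Limma called 0 genes on centred signals at an adjusted p of 0.05 and 17 at 0.10. It called 415 on deposited values (257 higher, 158 lower), 118 with arrays centred on the gene median (52 higher, 66 lower), 53 without genes below the median level (33 higher, 20 lower) and 0 to 777 with 1 array left out. In the same order of these 3 settings, it called 7, 6 and 6 other hypothalamic factors and 8, 5 and 4 factors shared with the retina, against 0 in the centred fit. Of neuroendocrine genes 4 were called on deposited values. With 1 array left out, 0 to 10 other hypothalamic factors, 0 to 6 shared factors, 0 to 4 neuroendocrine genes, 0 to 2 bHLH-PAS genes and 0 to 3 paralogues were called; the calls came without either Chx10-Cre;Lhx2 lox/lox array (273 genes without replicate 1 and 777 without replicate 2), where the lone array is assumed to vary like the other genotype. By size, 262 genes were higher and 149 lower, 170 and 262 with arrays centred on the gene median, and 43 and 25 at 2 log2 units. That centring set the median difference of all genes at -0.14, against 0.03. With the replicate block limma called 0 genes (3266 at an unadjusted p under 0.05) and 0 in each list, and the deviations of same-numbered arrays correlated at 0.479 across genes. The cause of these dependences was not tested. No detection calls were used, so the 75th percentile is a rough background mark.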
